A study of Paeonia lactiflora with 8 samples.

Results

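Root and leaf of the herbaceous peony Paeonia lactiflora Pall., both collected at the blossom period, were compared in their microRNAs. Each tissue had 2 libraries of small RNA, described as biological replicates, out of 8 libraries from 4 tissues in the series. No treatment is named, and the labels state neither the cultivar nor whether the 2 libraries of a tissue came from different plants, so p-values measure only the spread between these libraries. There were 304 deposited entries for 270 distinct mature sequences, and each sequence was taken under its first name. Of these, 177 had a normalized read count of at least 1 in at least 2 of the 4 root and leaf libraries and were compared. The 93 left out were at 0 in all 4 libraries for 44 sequences and above 0 in only 1 for 49. Values were also summed by the family number in the name, over 107 families, of which 67 passed the same minimum. These sums also include the sequences that were left out singly. The series concerns paeoniflorin, a monoterpene glucoside whose level differs between peony tissues.

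Plant microRNAs are short RNAs cut by a Dicer-like enzyme from the stem of a hairpin transcript. One strand, the mature miRNA, is loaded into an Argonaute protein and guides cleavage or repression of messenger RNAs to which it pairs almost in full. Many families are old, and their targets are known best from Arabidopsis and rice, where they include transcription factors of organ identity, components of auxin signalling, and enzymes for copper, sulfate and phosphate use. Target functions below are such background and were not measured here. In the deposited names the first letters stand for the species of the miRBase match, L and R for bases gained or lost at the left and right ends, ss for substituted bases, MIR with p3 or p5 for an arm of a hairpin, and PC for a predicted miRNA without such a match.

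The sequences on which the family results turn are given 5′ to 3′ as deposited, with T for U and with the seed, bases 2 to 8, in capitals. They are the main carriers of the families that were higher in leaf.
vvi-miR167b: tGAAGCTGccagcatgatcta
vvi-miR393a_R+1: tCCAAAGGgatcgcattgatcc
ath-miR408-3p_L-1R+1_2ss12CT15CT: tGCACTGCctttttcctggct
mtr-miR397-5p_L-2R+2: aTTGAGTGcagcgttgatgaa
sly-MIR6022-p3_2ss15TG17GA: cGAAACCTcaatctggagtaga
gma-MIR4995-p5_1ss1AG: gACTCATAggcagtggcttggtt
gra-MIR8642-p5_2ss13TC18CT: tCCATTTCtattctggttgcc

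The next set holds the carriers of the families that were higher in root, with the abundant miR159 for comparison, because miR159 and miR319 are related sequences with different target families.
ath-miR319a: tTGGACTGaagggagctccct
osa-miR319a-3p.2-3p_1ss14TG: tTGGACTGaagggggctccc
ath-miR159a: tTTGGATTgaagggagctcta
ptc-miR159c_L-2R+2_2ss20GC21AT: tGGAGTGAagggagctcctga
bol-MIR9410-p5_2ss4TG17TA: tTTGCAGAcgacttaaata
bdi-MIR9483a-p3_2ss12TC18AG: tTGGCTACgttcggaaggga

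The 4 libraries differed in depth and in their agreement with each other. Dividing each library's summed value by the value that 1 read is worth gave an implied depth of 178083 and 73898 reads in root and 254828 and 331706 in leaf. The value of 3 reads was 4.27 in root 1, 7.62 in root 2, 3.15 in leaf 1 and 2.23 in leaf 2, and it covers counting error only. On the log2 scale the 2 root libraries correlated across the 177 miRNAs with Pearson's r = 0.688 and the 2 leaf libraries with r = 0.899. Of 68 miRNAs with a mean of at least 100, 23 were over 10-fold apart between the root libraries or at 0 in 1 of them, against 2 between the leaf libraries. Sequences of 18 and 19 nt held 1.46% and 16% of the root totals and 0.565% and 0.556% of the leaf totals. Most of the 16% in root 2 was a single sequence, the 19-nt ath-miR396b-5p_R-2, at 21185 of a total of 187782. The table holds only small RNAs, so no messenger RNA marker of root or leaf could be checked, and fewer cells that make a miRNA cannot be told apart from less of it per cell.

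Among single miRNAs, 35 were higher in root and 52 higher in leaf by at least 2-fold in the means with no overlap between libraries, which is 19.8% and 29.4% of the 177. However, 8 of the 35 were at 0 in both leaf libraries and 24 of the 52 at 0 in both root libraries. Such miRNAs passed the minimum only through the other tissue, so their separation was fixed by it. The same holds for the counts of separated miRNAs in the lists below. Limma, fitted to log2(value + 1) in the 4 libraries with Benjamini-Hochberg adjustment, called 0 of the 177 at an adjusted p under 0.05, or 0%. At an unadjusted p under 0.05 there were 48, or 27.1%. The 20 lowest adjusted p-values were all 0.0524, and 34 lay under 0.1, or 19.2%, 10 higher in root and 24 higher in leaf. With the spread estimated from all 8 libraries of the series, limma called 27 of the same 177, or 15.3%, 9 higher in root and 18 higher in leaf. With 1 library left out, the spread comes from the tissue that keeps both libraries: limma then called 26 without leaf 1 and 26 without leaf 2, where miRNAs at 0 in both root libraries have no spread, and 0 without root 1 or root 2. The separated miRNAs, 87 in all, were 133 without root 1. With 2 libraries against 2, an exact permutation test of a single value cannot go below p = 0.333, so single miRNAs below are described by their values, their separation and both fits.

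**Figure D1:**
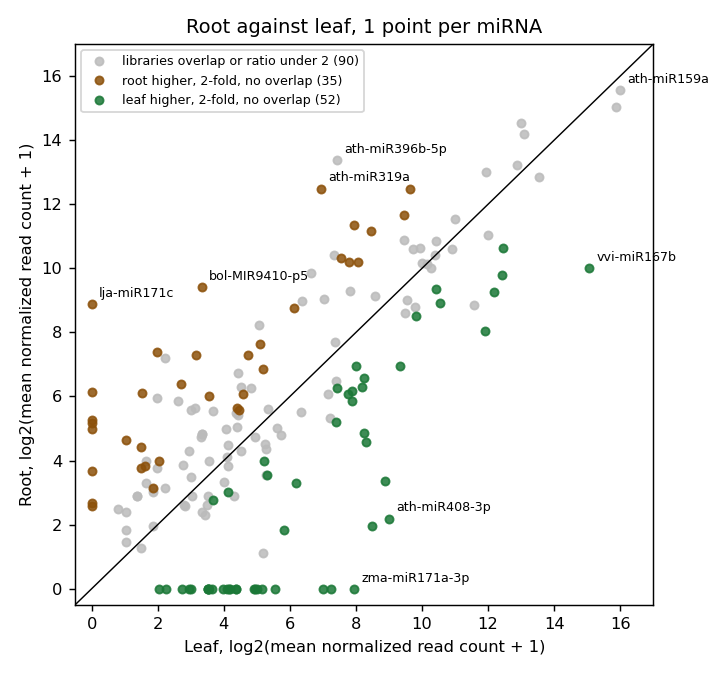
Mean normalized read count of each of the 177 miRNAs in leaf (x axis) and root (y axis), both as log2(mean + 1), with the line of equal values. Brown points are the 35 that were at least 2-fold higher in root with no overlap between libraries, green points the 52 higher in leaf, and grey points the rest; ath-miR159a lies close to the line and vvi-miR167b far below it.

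Summed by family, 8 of 67 families differed (limma, adjusted p under 0.05), or 11.9%, with 16 at an unadjusted p under 0.05. Higher in leaf were miR167, of auxin signalling, the copper-linked miR397 and miR408, and miR6022, miR4995 and miR8642, 6 families or 8.96%. Higher in root were miR9410 and miR9483, 2 families or 2.99%. Of the 8, miR397, miR6022, miR4995 and miR8642 were at 0 in both root libraries and miR9483 in both leaf libraries. These passed the minimum only through the other tissue, which sets the direction of their difference. With the spread from all 8 libraries, limma called 12 families, or 17.9%. Over all 67 families the median log2 difference, root minus leaf, was 0.23, and over the 177 miRNAs it was -0.40.

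**Figure D2:**
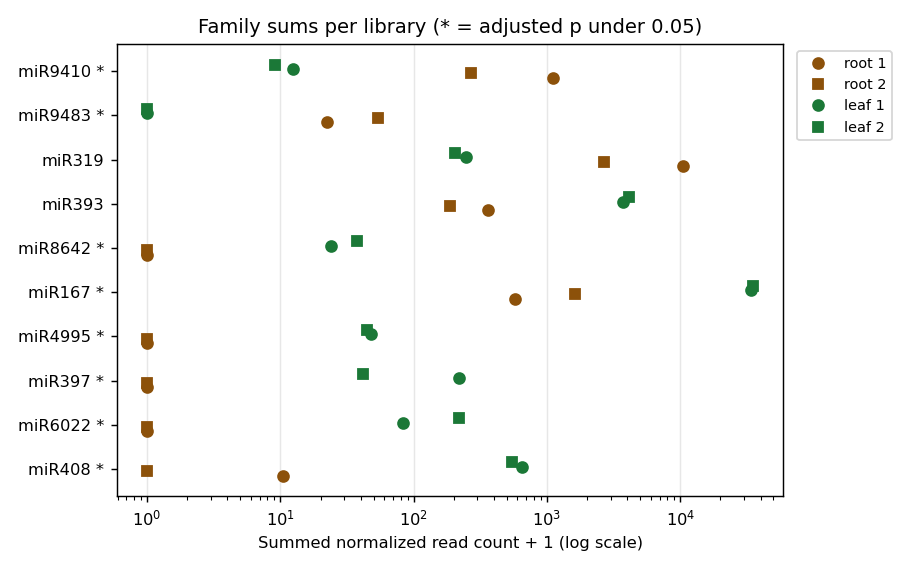
Summed normalized read count of 10 families in each of the 4 libraries, plotted as value + 1 on a log axis so that 0 appears at 1. Brown marks root and green leaf, circles replicate 1 and squares replicate 2; in all 10 families, the 8 called (asterisks) and miR319 and miR393, the root and leaf points do not overlap.

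The auxin families held the largest amounts that were higher in leaf. miR167, which targets auxin response factors of flower and root development, summed to 572 and 1622 in the 2 root libraries, with 33879 and 35182 in those of leaf. Both leaf libraries lay far above both root libraries, with means of 1097 ± 742 in root and 34531 ± 921 in leaf (SD, n = 2), 31.5-fold higher in leaf. The log2 difference, root minus leaf, was -5.16 (SE 0.85, limma adjusted p = 0.0391). The family was 0.226% and 0.864% of the root totals and 12.7% and 14.3% of the leaf totals. Nearly all of it was vvi-miR167b, at 557 (root 1), 1495 (root 2), 33594 (leaf 1) and 34830 (leaf 2). The opposite strand of the hairpin, ath-miR167a-3p_L+1_2ss10TG11C-, lay on the same side, at 11.4 and 34.3 in the root libraries and 281 and 352 in the leaf libraries. The third member, cca-MIR167-p3_1ss2GA, was low and overlapped, at 2.85 and 26.7 in the 2 root libraries, with 4.19 and 0 in those of leaf.

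miR393, which targets the auxin receptors of the TIR1 and AFB group, was 357 (root 1), 186 (root 2), 3716 (leaf 1) and 4108 (leaf 2). It was 14.4-fold higher in leaf with no overlap, with a log2 difference of -3.92 ± 0.91 (SE), and it missed the threshold (adjusted p = 0.0537, limma; adjusted p = 0.0293 with the spread from 8 libraries). All 5 of its tested sequences were higher in leaf by at least 2-fold without overlap, among them the hairpin arm vvi-MIR393b-p3, at 0 and 17.8 in the root libraries and 73.4 and 69.8 in the leaf libraries. The other members, ath-miR393a-5p_L+1R-2, bdi-miR393a_R+1_1ss21CT and gma-MIR393a-p3, were listed at 0 in root and between 5.24 and 27.5 in leaf. Much of that range is near the 3-read value of 7.62 in root 2.

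The remaining auxin families were not higher in leaf as sums. miR160, which targets another group of auxin response factors, was 4321 and 846 in the 2 root libraries, with 1916 and 1387 in those of leaf, and the libraries overlapped. Within it the mature strand ath-miR160a-5p was 3590 (root 1), 133 (root 2), 1596 (leaf 1) and 1168 (leaf 2). The opposite strand ath-miR160a-3p_1ss16TA was 316 and 556 in the root libraries and 73.4 and 63.8 in the leaf libraries, 6.36-fold higher in root without overlap (adjusted p = 0.142, limma). miR390, which starts the production of small interfering RNAs against auxin response factors, was 992 and 137 in the 2 root libraries, with 207 and 195 in those of leaf and overlapped. Of 15 auxin miRNAs, 8 were separated toward leaf and 2 toward root, where 29.4% and 19.8% of all 177 were. Of the 8 toward leaf, 4 were at 0 in both root libraries. The median log2 difference of the 15 was -2.92, against -0.40 over all 177. Limma called 0 of the 15, with 8 at an unadjusted p under 0.05.

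Copper-linked families had low or no reads in root. miR408, which targets plantacyanin and laccase, was 9.48 (root 1), 0 (root 2), 646 (leaf 1) and 548 (leaf 2), with a log2 difference of -7.52 (SE 1.36), past the threshold (limma, adjusted p = 0.0391). The root sum in replicate 1 corresponds to few reads, as 3 reads are worth 4.27 there. miR397, which targets laccases, enzymes of lignin formation, was listed at 0 in both root libraries and was 216 and 40.8 in leaf, with a log2 difference of -6.57 (SE 1.17, limma adjusted p = 0.0391). miR398, which targets Cu/Zn superoxide dismutase, was 5.69 and 17.8 in the root libraries and 757 and 18.1 in the leaf libraries. Its leaf libraries were far apart and the lower one lay just above root (adjusted p = 0.343, limma). The root 2 value was that of the 18-nt sbi-MIR398-p3_2ss5GA18AG alone. The most abundant member, tcc-miR398a, was 5.69 and 0 in the root libraries and 696 and 15.5 in the leaf libraries (adjusted p = 0.292, limma). The 3 families together held 0.00599% and 0.00947% of the root totals and 0.606% and 0.246% of the leaf totals. Of 6 copper miRNAs, 4 were separated toward leaf and 0 toward root, against 29.4% and 19.8% of all 177, with a median log2 difference of -4.35 against -0.40. Of the 4, 2 were at 0 in both root libraries. Limma called 0 of the 6 singly, with 2 at an unadjusted p under 0.05.

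The other called families are each carried by 1 tested sequence, apart from a minor second sequence of miR9410. miR6022, a family described in Solanaceae with immune receptor targets, was listed at 0 in root and was 81.8 and 217 in leaf (log2 difference -7.07 ± 0.97 SE, adjusted p = 0.0391, limma). miR4995 was listed at 0 in root and was 47.2 and 43.8 in leaf (log2 difference -5.54 ± 0.95 SE, adjusted p = 0.0391, limma). miR8642 was listed at 0 in root and was 23.1 and 36.4 in leaf (log2 difference -4.91 ± 1.02 SE, adjusted p = 0.0466, limma). All of these leaf values exceed the 3-read value of 7.62 in root 2. On the root side, miR9410 was 1115 and 267 in the 2 root libraries, with 11.5 and 8.16 in those of leaf, 70.2-fold higher in root (log2 difference 5.67 ± 1.06 SE, adjusted p = 0.0391, limma). miR9483 was 21.3 and 53.4 in root and listed at 0 in leaf (log2 difference 5.12 ± 1.07 SE, adjusted p = 0.0466, limma). The tested sequences of these 5 families all have MIR names with 1 or 2 substitutions against the matching hairpin. No genome was used here to check them, so whether miR9410 and miR9483 are fragments of other RNA was not tested.

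Leaving out 1 library leaves a tissue with a single library, which is then assumed to vary like the other tissue, so the spread comes from the other tissue alone and the adjusted p-values follow it more than the size of the difference. These fits therefore say little about how stable a call is. Leaving out leaf 1 or leaf 2 ended the calls of miR167 (adjusted p = 0.323 and 0.359), miR408 (0.395 and 0.416), miR9410 (0.359 and 0.416) and miR9483 (0.299 and 0.353). Leaving out root 1 or root 2 ended those of miR397 (0.132 and 0.177), miR6022 (0.0759 and 0.0945), miR8642 (0.0599 and 0.0703) and miR9410 (0.0599 and 0.0662), all by limma. The calls kept without a leaf library were those of miR397, miR4995, miR6022 and miR8642, which are at 0 in both root libraries and so have no spread there. No log2 difference of the 8 changed sign in these fits. Their ranges were -5.91 to -4.41 for miR167, -7.76 to -5.39 for miR397, -9.22 to -5.83 for miR408 and -5.59 to -5.48 for miR4995. They were -7.77 to -6.37 for miR6022, -5.22 to -4.59 for miR8642, 4.64 to 6.70 for miR9410 and 4.48 to 5.76 for miR9483. For miR167 the difference without a leaf library was -5.19 or -5.14, close to -5.16 in all 4.

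miR319, which targets TCP transcription factors that limit cell division in growing leaves, had the highest root mean after miR2916 among families separated toward root. Its sum was 10494 and 2680 in the root libraries and 247 and 203 in the leaf libraries, 29.3-fold higher in root (log2 4.56 ± 1.07 SE), and it missed the threshold (adjusted p = 0.0537, limma; adjusted p = 0.0268 with the spread from 8 libraries). The root libraries were further apart than those of leaf, and the lower of them lay far above both leaf libraries. The mature ath-miR319a was 9049 (root 1), 2445 (root 2), 134 (leaf 1) and 110.2 (leaf 2). The 20-nt osa-miR319a-3p.2-3p_1ss14TG, which has the same seed, was 196 and 114 in the root libraries and 9.04 and 7 in the leaf libraries. The hairpin arm ppe-MIR319a-p5 was 304 and 25.4 in the 2 root libraries, with 0 and 5.94 in those of leaf. The more abundant ath-MIR319a-p5_1ss7CG was 943 and 71.2 in the root libraries and 91.7 and 70.1 in the leaf libraries. It overlapped between the tissues (adjusted p = 0.582, limma). Without its first base it is the sequence of mtr-miR159b_L-1_1ss21AC, which is summed under miR159. The miR319 and miR159 sums thus follow the names and do not fully part the related sequences. One arm lay on the other side: ptc-MIR319a-p5_2ss3AG18AT was listed at 0 in root and was 11.5 and 9.65 in leaf.

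miR159, which targets GAMYB transcription factors, did not pass the test as a sum. It was 54527 (root 1), 50418 (root 2), 56805 (leaf 1) and 75492 (leaf 2), 1.26-fold higher in leaf, with a log2 difference of -0.32 (SE 0.47, limma adjusted p = 0.796). That sum is almost all ath-miR159a. The lesser ptc-miR159c_L-2R+2_2ss20GC21AT, whose seed differs from that of ath-miR159a, was 2844 and 2387 in the root libraries and 163 and 328 in the leaf libraries, 10.7-fold higher in root (adjusted p = 0.0565, limma; adjusted p = 0.0423 with the spread from 8 libraries). The hairpin arm vvi-MIR159c-p5_1ss10CA was 317 and 2231 in the root libraries and 106 and 268 in the leaf libraries. Of the 9 miRNAs of miR159 and miR319, 5 were separated toward root and 1 toward leaf, against 19.8% and 29.4% of all 177, with a median log2 difference of 2.31 against -0.40. Limma called 0 of the 9, with 4 at an unadjusted p under 0.05.

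Members of a family often pointed in different directions, and a sum need not have the sign of its most abundant member: the miR160 sum had a log2 difference, root minus leaf, of 0.23 and ath-miR160a-5p one of -0.98. Of 38 families with at least 2 tested sequences, 21 had members on both sides of 0 and 4 had members separated by at least 2-fold on both sides. These 4 were miR171, miR172, miR319 and miR530. Grouped by seed in place of the name, 23 seeds were held by at least 2 of the 177 miRNAs, and 0 of these groups had members separated on both sides. Most of these groups had fewer than 2 separated members and could not have shown both sides, so this count cannot be set against that of the families. A family here is only the number in the name. Some members share a hairpin or differ by a few bases and are not separate measurements of the tissue. Others are unlike in sequence, such as cme-MIR172d-p3_2ss7AG18AT and nta-miR172d. Members on both sides of 0 are therefore not always forms of the same miRNA.

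**Figure D3:**
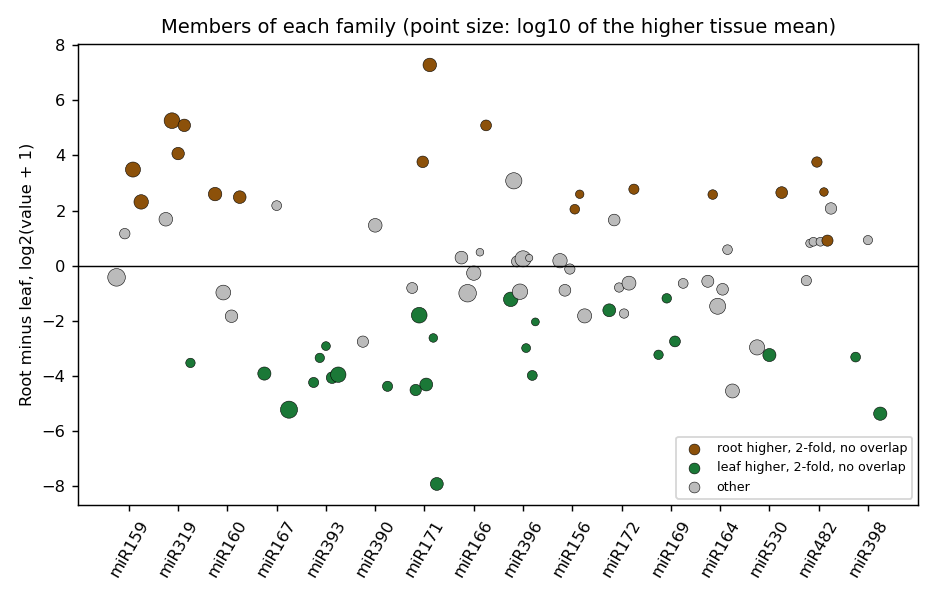
Log2 difference, root minus leaf, of the tested members of 16 families, with 1 point per sequence and the point size growing with the log10 of the higher tissue mean. Brown and green points are at least 2-fold higher in root or leaf with no overlap; all 5 miR393 points lie below 0, and miR171 runs from -7.92 to 7.28.

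miR171, which targets GRAS transcription factors that keep meristems undifferentiated, showed the widest range of any family. Its members are shown because they have different seeds.
ath-miR171a-3p_1ss17AG: tGATTGAGccgcgccagtatc
zma-miR171a-3p_L+1R+1_1ss18AG: cTGATTGAgccgcgccagtatc
lja-miR171c: tGAGCCGAatcaatatcactc
sly-miR171e: tTGAGCCGcgtcaatatctct
aly-miR171c-5p_1ss11GC: aGATATTGgtccggttcaatc

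The family sum was 2660 and 1781 in the root libraries and 7289 and 5137 in the leaf libraries, 2.8-fold higher in leaf without overlap (adjusted p = 0.309, limma). ath-miR171a-3p_1ss17AG made up most of it, at 1586 and 1605 in the 2 root libraries, with 6605 and 4662 in those of leaf. The form that starts 1 base earlier, zma-miR171a-3p_L+1R+1_1ss18AG, was listed at 0 in both root libraries and was 278 and 209.6 in leaf. That longer form was thus listed only in leaf among these 4 libraries. The opposite strand aly-miR171c-5p_1ss11GC was 0 (root 1), 5.08 (root 2), 48.8 (leaf 1) and 62.7 (leaf 2). lja-miR171c went the other way, at 919.7 and 25.4 in the root libraries and 0 and 0 in the leaf libraries. Its root libraries were far apart (adjusted p = 0.115, limma; adjusted p = 0.0415 with the spread from 8 libraries). Of the 8 tested, 5 were separated toward leaf and 2 toward root, where 29.4% and 19.8% of all 177 were.

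Several of the most abundant families overlapped between the tissues. miR166, which targets HD-ZIP III transcription factors of vascular tissue and organ polarity, was 53101 and 16853 in the 2 root libraries, with 75915 and 45526 in those of leaf. Its root library 1 lay above leaf library 2, so the groups overlapped. A minor form, ptc-miR166p_L+2R-2, was 23.8 and 45.7 in root and listed at 0 in leaf (adjusted p = 0.0524, limma; adjusted p = 0.0265 with the spread from 8 libraries). miR168, which targets AGO1, the Argonaute that carries miRNAs, was 47913 (root 1), 3057 (root 2), 10254 (leaf 1) and 8226 (leaf 2), so that the leaf values lay between the root values. miR164, which targets NAC genes of organ boundaries and lateral roots, did the same, at 17626 and 149.9 in the root libraries and 5207 and 4199 in the leaf libraries. miR396, which targets growth-regulating factors, was 8775 and 37074 in the 2 root libraries, with 11941 and 14422 in those of leaf. The root value of 37074 rests in large part on the 19-nt ath-miR396b-5p_R-2, at 21185 there and 99.6 in root 1. Its full-length relative gma-miR396a-5p, with the same seed, was 6168 (root 1), 12802 (root 2), 6965 (leaf 1) and 8047 (leaf 2). Of the 24 families with a mean of at least 1000 in either tissue, 5 were separated by 2-fold toward root and 4 toward leaf. Of all 67 families, 26.9% and 22.4% were.

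**Figure D4:**
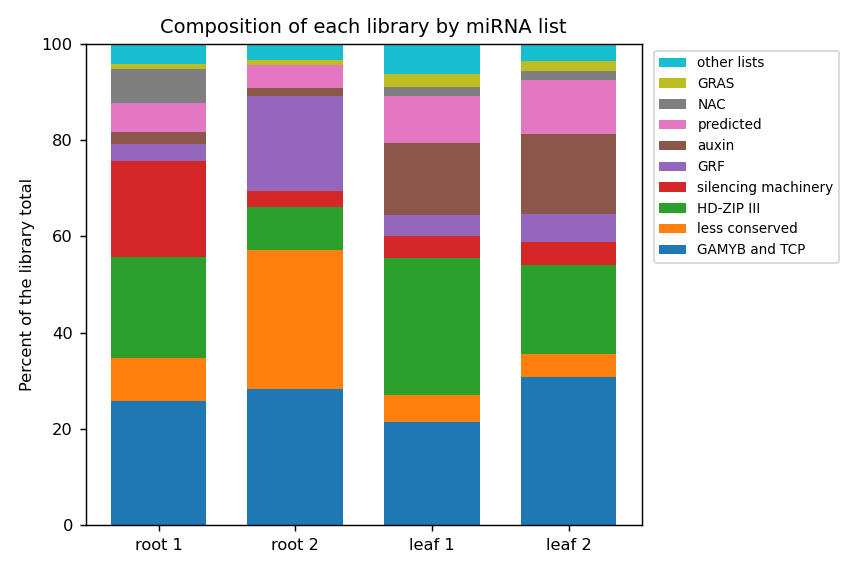
Share of each library's total normalized read count, in percent, held by the lists of families, with smaller lists pooled. The auxin list is 14.9% and 16.6% in leaf and 2.46% and 1.49% in root, while the silencing machinery list is 20.1% in root 1 and 3.41% in root 2, so the root libraries also differ from each other.

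Phase change miRNAs showed no common direction. miR156, which targets SPL genes of the juvenile phase, was 1932 and 1418 in the root libraries and 2800 and 1220 in the leaf libraries. The related miR157 was 101 and 188 in the 2 root libraries, with 74.4 and 27.5 in those of leaf, 2.84-fold higher in root without overlap (adjusted p = 0.386, limma). miR172, which acts against AP2 genes later in development, was 531 (root 1), 617 (root 2), 515 (leaf 1) and 1484 (leaf 2). Of 14 phase change miRNAs, 4 were separated toward root and 1 toward leaf, where 19.8% and 29.4% of all 177 were. Among the 4 is osa-MIR156l-p3_1ss4CT, which consists of dinucleotide repeats. The small miR535 family, which is also linked to SPL genes, was 148 and 45.7 in the root libraries and 26.2 and 20 in the leaf libraries, and aqc-miR535_R-1 was 48.4 and 12.7 in root and listed at 0 in leaf.

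None of the 4 nutrient families was called, and 3 of them had a negative log2 difference, root minus leaf. miR395, which targets ATP sulfurylases of sulfate assimilation, was 253 and 10.2 in the 2 root libraries, with 1459 and 778 in those of leaf without overlap (adjusted p = 0.203, limma). Its mature strand mdm-miR395a was 18.5 (root 1), 0 (root 2), 485 (leaf 1) and 455 (leaf 2), and the opposite strand aly-miR395d-5p_2ss5TC8CG was 235 and 10.2 in the root libraries and 974 and 315 in the leaf libraries. The phosphate-linked miR399, whose known target is PHO2, was 8.54 and 10.2 in the 2 root libraries, with 40.9 and 55.7 in those of leaf (adjusted p = 0.183, limma). miR827, linked to phosphate transport, was 31.3 (root 1), 1260 (root 2), 237 (leaf 1) and 210.0 (leaf 2) and overlapped. miR2111, which acts in phosphate and nodulation signalling, was 93.9 and 0 in the root libraries and 0 and 14.1 in the leaf libraries and overlapped, with a log2 difference of 1.33. Of 6 nutrient miRNAs, 3 were separated toward leaf and 0 toward root, against 29.4% and 19.8% of all 177, and limma called 0, with 2 at an unadjusted p under 0.05.

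miR169, which targets NF-YA genes, had negative log2 differences, root minus leaf, in all 4 of its tested sequences, and 3 were separated. Its sum over all sequences of the family was 50.3 and 69.6 in the 2 root libraries, with 75.5 and 72.5 in those of leaf. The libraries did not overlap, but the means differed by only 1.23-fold (adjusted p = 0.931, limma). In root 2 most of the sum came from outside the 4 tested sequences, which were 0, 2.03, 7.12 and 0 there. miR530 was 898 (root 1), 452 (root 2), 6183 (leaf 1) and 588 (leaf 2), and its root 2 sum also holds a sequence that did not pass the minimum. Its most abundant member ppe-miR530_L-2R+2 was 869 and 45.7 in the root libraries and 5720 and 433 in the leaf libraries, while the 18-nt tcc-MIR530b-p5_2ss11GC17TA was 9.96 and 155 in the 2 root libraries, with 5.24 and 5.94 in those of leaf. The MYB families miR828 and miR858, whose targets include regulators of phenylpropanoid compounds, overlapped, miR858 at 1090 (root 1), 1062 (root 2), 868 (leaf 1) and 1609 (leaf 2). Of the silencing machinery families besides miR168, miR162, which targets Dicer-like genes, and miR403, which targets Argonaute genes, also overlapped. Of 7 silencing machinery miRNAs, 0 were separated toward root and 1 toward leaf, and of 4 MYB miRNAs none was separated. Of 9 miR396 sequences 4 were separated toward leaf and 0 toward root, and of 6 sequences with miR164 names 1 toward root. Of the 4 miR396 sequences toward leaf, 3 were at 0 in both root libraries. Over all 177 the shares were 29.4% toward leaf and 19.8% toward root. The miR164 sequence toward root, csi-MIR164-p3, is a dinucleotide repeat throughout.

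Of 12 miRNAs on the immune receptor list, 4 were separated toward root and 1, the miR6022 sequence, toward leaf, where 19.8% and 29.4% of all 177 were. The miR482 sum was 255 and 107 in the root libraries and 61.9 and 30.1 in the leaf libraries. Of its 8 tested sequences 6 hold a dinucleotide repeat of at least 8 bases, so that sum is not one of conserved miR482 alone. Of the others, gso-miR482a_R+1 was 22.8 and 71.2 in the 2 root libraries, with 19.9 and 22.3 in those of leaf. In contrast, nta-miR482a_1ss8TG was 122 and 0 in the root libraries and 0 and 5.94 in the leaf libraries. Its libraries overlapped (adjusted p = 0.742, limma). miR5213 was 4903 (root 1), 999 (root 2), 2362 (leaf 1) and 1703 (leaf 2) and overlapped.

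The predicted peony miRNAs lay toward leaf. Of 19 tested, 17 had a negative log2 difference, root minus leaf, against 98 of all 177. Separated toward leaf were 12 and toward root 0, where 29.4% and 19.8% of all 177 were, with a median of -1.60 against -0.40. Of the 12, 4 were at 0 in both root libraries. Some of the 19 are complementary in part, such as PC-5p-433_6258 and PC-3p-122_21043. These may be strands of the same hairpin, so the 19 may not all be separate. The most abundant, PC-5p-97_25693, was 9794 and 4983 in the root libraries and 12229 and 11412 in the leaf libraries. PC-3p-96_26140 was 758 and 455 in the 2 root libraries, with 6771 and 2583 in those of leaf, 7.71-fold higher in leaf (adjusted p = 0.107, limma). PC-3p-122_21043 was 949 (root 1), 813 (root 2), 2406 (leaf 1) and 8535 (leaf 2). Both names were chosen after their values were seen. The predicted miRNAs held 6.16% of the total of root 1, 4.87% of root 2, 9.75% of leaf 1 and 11.3% of leaf 2. Limma called 0 of the 19, with 5 at an unadjusted p under 0.05.

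Sequences of different length lay on different sides. The 82 sequences of 21 nt, the common length of plant miRNAs, had a median log2 difference of -1.35, and the 23 of 22 nt one of -1.44. The 29 of 18 nt and the 22 of 19 nt had medians of 0.64 and 0.37. Medians were also above 0 for the 11 of 20 nt (0.28), the 4 of 23 nt (1.40) and the 5 of 24 nt (0.42). The contrast is thus between 21 and 22 nt and the other lengths, rather than between short and long. Separated toward root were 13 of the 51 of 18 and 19 nt and toward leaf 6, against 22 and 46 of the 126 of 20 nt or longer. These counts give each sequence the same weight, whereas most of the share of short sequences in root 2 was ath-miR396b-5p_R-2, which overlapped between the tissues. The part of root 2 in the counts was not tested.

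**Figure D5:**
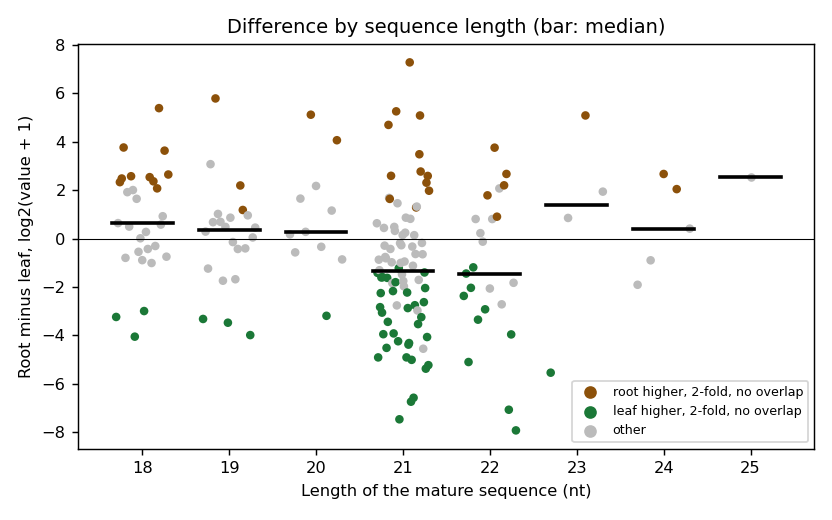
Log2 difference, root minus leaf, of each of the 177 miRNAs by the length of its mature sequence in nt, with black bars for the medians. The medians lie at -1.35 for 21 nt and -1.44 for 22 nt, and at 0.64 for 18 nt, with those of 19, 20, 23 and 24 nt also above 0. Brown and green points are at least 2-fold higher in root or leaf with no overlap.

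A subset of the short sequences ends in CCA, as mature transfer RNAs do. All 6 tested sequences of 18 nt with this ending had a positive log2 difference, as 79 of all 177 did, and 5 were separated toward root, as 19.8% of all 177 were. Among the 6, cme-MIR171d-p3_1ss1TC ends in the bases that open aly-miR171b-3p, so its CCA is part of miR171 sequence. Limma called 0 of the 6, with adjusted p from 0.105 to 0.62 and 1 at an unadjusted p under 0.05. ath-miR8175_L-2 was 721 and 1626 in the root libraries and 164.6 and 278 in the leaf libraries. ppt-miR894_L-3R+1 was 522 and 4063 in the 2 root libraries, with 299 and 396.2 in those of leaf. rgl-miR5139_L-1_1ss16AG was 12.8 and 127 in root and listed at 0 in leaf. In each of the 6 the higher root value was in root 2, and as a class they were 0.54% and 3.61% of the root totals and 0.188% and 0.306% of the leaf totals.
ath-miR8175_L-2: tCCCCGGCaacggcgcca
ppt-miR894_L-3R+1: tTCACGTCgggttcacca
rgl-miR5139_L-1_1ss16AG: aACCTGGCtctgatgcca

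Some less conserved families of higher abundance were also separated toward root. miR2916 was 5780 (root 1), 12083 (root 2), 1652 (leaf 1) and 1336 (leaf 2), 5.98-fold higher in root without overlap (adjusted p = 0.156, limma). Both of its sequences were separated toward root. The sequence peu-miR2916_R-1_2ss6AG21TG was 3135 and 8266 in the root libraries and 856 and 741 in the leaf libraries. The sequence named after a hairpin arm, peu-MIR2916-p3, was 2645 and 3817 in the 2 root libraries, with 797 and 595 in those of leaf. miR6300 was 8461 (root 1), 29090 (root 2), 10316 (leaf 1) and 7265 (leaf 2) and overlapped. Of the 47 less conserved miRNAs, 13 were separated toward root and 8 toward leaf, a share toward root not far from the 19.8% of all 177, with a median log2 difference of 0.50. The authors removed common RNA families from the reads, per the labels' protocols, but that does not show that none remained. No genome was used here, so whether the miR2916 and miR6300 sequences are fragments of ribosomal or transfer RNA was not tested.

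Absence from root was harder to show than absence from leaf, as both root libraries were shallower than both leaf libraries. Both root libraries were listed at 0 for 24 of the 177 miRNAs. For 13 of the 24, both leaf values exceeded 7.62, the value of 3 reads in root 2, and for the other 11 this depth could not show that they were missing from root 2. Both leaf libraries were listed at 0 for 8 miRNAs, and in all 8 both root values exceeded 3.15, the higher of the 3-read values in leaf. The highest of these means were those of lja-miR171c in root, at 473, and of zma-miR171a-3p_L+1R+1_1ss18AG in leaf, at 244.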

How the data were processed

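Small RNA of 2 root and 2 leaf libraries collected at the blossom period was sequenced (TruSeq small RNA library preparation, HiSeq). Per the labels' protocols, the ACGT101-miR program took out adapter dimers, junk and low-complexity sequence, repeats, and reads of ribosomal, transfer and small nuclear RNA. The authors deposited normalized read counts per mature sequence, treated here as a signal. Their scaling formula and the genome build were not given in the sources used here. Totals ran from 187782 to 267174.

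From these values, identical sequences were merged under the first name, values were kept at a minimum of 1 in at least 2 of the 4 libraries, and limma 3.58.1 (R 4.3.3) was run on log2(value + 1) with a trend and tissue as its only term. It had 2 residual degrees of freedom, plus 1.81 prior degrees for miRNAs and 2.76 for families. Log2 differences on this scale understate changes of low values, and a fold is a ratio of means. The value of 1 read was the largest step of which at least 70% of a library's values were multiples, within 0.01 of a step, and at least 90% when steps of 1 in 2 were accepted. As reads appear split between loci, no count model was used. The limma step was tested on simulated data.

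Named were all families called, the largest differences without overlap at a mean of at least 50 (15 miRNAs and 10 families a side), the 10 most abundant miRNAs and 12 most abundant families, and members of named families. Members outside this rule were named after their values were seen. The members, lists and naming rule were chosen with earlier results of these data known. The alternatives were other pseudocounts, filters and scalings, the 8-library fit, library weights, the replicate number as a block, and leaving out each library. Flower and fruit entered only the 8-library fit.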

Additional observations from a re-analysis of the deposited data

How the results depend on the processing

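The count of miRNAs called, 0, became 27 with all 8 libraries in the fit, 28 with a pseudocount of 0.5, 18 with a minimum value of 10, 38 with the replicate block, 26 with every deposited entry as its own row, 34 at an adjusted p under 0.1 and 27 among sequences of 20 nt or longer, the last chosen after seeing the data. Without 1 library it ran from 0 to 26, being 0 without either root library, with 85 and 62 at an unadjusted p under 0.05, and 26 without either leaf library. In those fits the tissue with 1 library is assumed to vary like the other. It stayed at 0 with a pseudocount of 10, no filter, quantile normalization, equal totals, no trend and library weights, with 40 to 49 at an unadjusted p under 0.05. The count of families called, 8, was 4 with a pseudocount of 10, 16 with the replicate block, and 6 to 10 without 1 library. The replicate numbers of root and leaf share only a number: the deviations of the replicates correlated at 0.264 across miRNAs over 2 pairs. The count of separated miRNAs, 87, ran from 100 to 133 with 1 library left out, the latter without root 1. Quantile normalization moved the median log2 difference over all miRNAs from -0.40 to 0.08, and equal totals to -0.16.

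None of the values that changed sign had been called, and the cause was not tested. Quantile normalization turned the log2 difference of ath-miR159a to 0.23, and the sums of miR159 to 0.20, miR160 to -0.22 and miR5213 to -0.25. Leaving out 1 library gave ranges of log2 differences, root minus leaf, that crossed 0: ath-miR168a-5p -1.82 to 2.47, ath-miR396b-5p_R-2 -0.78 to 6.94, csi-miR164 -5.01 to 2.06, gma-miR396a-5p -0.28 to 0.77, gma-miR6300_R+5 -0.033 to 1.75, miR160 (sum) -0.94 to 1.41, miR164 (sum) -4.95 to 1.91, miR168 (sum) -1.59 to 2.38, miR396 (sum) -0.58 to 1.498, miR5213 (sum) -1.01 to 1.29, miR6300 (sum) -0.033 to 1.75. The lowest values of ath-miR168a-5p and of the miR168, miR160 and miR5213 sums came without root 1, and the turned values of the others without root 2. Without leaf 2, miR160 was -0.0023 and miR5213 -0.094. Depth limits absence from root most, as 3 reads are worth 7.62 in root 2.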
